A study of Mus musculus with 4 samples.

Results

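Genes of the Nrf2 antioxidant response and of glutathione metabolism were examined in 4 mouse oral cancer cell lines. The set was a list of 42 gene symbols given by pathway, all found among the 34721 entries of the expression table. It covered 2 regulators, 5 genes of glutathione supply, 5 of NADPH supply, 5 of the thioredoxin and peroxiredoxin system, 6 of peroxide and superoxide removal, 10 glutathione transferases, 6 of quinone and xenobiotic handling and 3 of heme and iron. A gene was followed further when it reached 1 FPKM in at least 1 line, where FPKM is the number of fragments divided by transcript length in kilobases and by library size. This held for 41 of the 42 members and for 14165 entries of the table, and the exception was Gsta2, an alpha-class glutathione transferase, with at most 0.161 FPKM.

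The lines AOC3 and AOC11 were derived from oral tumors of separate male C57BL/6 mice whose buccal mucosa had been painted with the carcinogen 7,12-dimethylbenzanthracene (DMBA). AOC3-LN and AOC11-LN were derived from lymph node metastases of the corresponding mice. All 4 lines had been passaged once as a subcutaneous tumor in another mouse, depleted of fibroblasts and grown in DMEM/F12 with serum, with no further treatment. Each line gave 1 mRNA library, so each mouse was represented by a pair of lines and each site in a mouse by a single library.

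The libraries were estimated at 28480000 to 33950000 fragments from the spacing of low FPKM values. Of 7 epithelial markers, Epcam (416 to 518 FPKM), Cdh1 (144 to 183 FPKM), Krt8 (815 to 1078 FPKM) and Krt18 (957 to 1322 FPKM) were high in all lines. Krt5 was at 499 FPKM in AOC3 and 275 in AOC3-LN, against 4.99 in AOC11 and 17.0 in AOC11-LN. Krt14 went the other way, at 166 FPKM in AOC3 and 150 in AOC3-LN, against 257 in AOC11 and 259 in AOC11-LN. Trp63 was low, at 1.69, 2.10, 0.0848 and 0.841 FPKM in the same order of lines. None of 7 fibroblast, 4 endothelial or 4 T cell markers reached 1 FPKM in any line, and the summed level of each list was at most 1.05 FPKM. Of 6 macrophage markers, Cd14 was at 6.27 to 8.55 FPKM in all lines, and Ptprc and Itgam were at most 0.064 and 0.0135 FPKM. Csf1r was at 20.8 FPKM in AOC11 and 6.01 in AOC11-LN, against 0.995 in AOC3 and 0.435 in AOC3-LN. Mrc1 went the other way, at 0.211 FPKM in AOC3 and 0.913 in AOC3-LN, against 0.0284 in AOC11 and 0.0059 in AOC11-LN. Adgre1 was listed at 0 in every line. The summed level, mostly from Cd14 and Csf1r, was 8.53 to 9.96 in the AOC3 lines and 12.3 to 27.7 in the AOC11 lines. The part of these marker differences in the results below was not tested. In bulk RNA, fewer cells of a type and less RNA per cell cannot be told apart.

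Nrf2, the product of Nfe2l2, is a transcription factor that activates genes of detoxification and antioxidant defence. Keap1 binds Nrf2 in unstressed cells and leads it to degradation, and reactive electrophiles or oxidants that modify Keap1 let Nrf2 accumulate. Control of Nrf2 is thus largely at the level of the protein, which was not measured here. In the nucleus Nrf2 pairs with small Maf proteins at the antioxidant response element. Nrf2 activity is well known in carcinomas of the head and neck, where KEAP1 and NFE2L2 are recurrently mutated.

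The core of that element, TGACNNNGC on either strand, was searched in RefSeq promoter windows of assembly GRCm38.p6, each of 300 bases (250 before and 50 after a gene start). Windows were at hand for 36 members, and 11 of these (30.6%) held a match, against 14.0% of 27025 genes with a window. Counted by window, 11 of 46 member windows (23.9%) and 12.4% of all 32851 windows held one. The stretches below are shown because they belong to members for which both lines of one mouse lay above both lines of the other. Nfe2l2 also held a match and lay higher in both AOC3 lines. The bases shortly after its RefSeq start were not found in its GENCODE M21 transcripts, so its stretch is left out. Pgd, the remaining match, overlapped between the mice. Capitals mark the match, and each stretch is written on the strand of its gene. A match that begins with GC is therefore the element on the other strand. Positions count from the RefSeq start of the window, which was not compared with GENCODE starts. It can lie inside the gene span given below, as for G6pdx and Mgst1. For Txnrd1 it lies far inside the span (chr10:82833951-82897712).

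The first 5 belong to genes with higher levels in both AOC3 lines.
G6pdx: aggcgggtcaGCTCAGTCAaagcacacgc, chrX:74428919-74428947, minus strand, match at position -57 from the gene start.
Sod1: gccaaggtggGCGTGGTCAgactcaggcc, chr16:90220696-90220724, plus strand, position -56.
Prdx1: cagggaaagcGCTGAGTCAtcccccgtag, chr4:116685456-116685484, plus strand, position -133.
Srxn1: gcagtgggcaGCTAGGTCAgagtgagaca, chr2:152105542-152105570, plus strand, position 28.
Txnrd1: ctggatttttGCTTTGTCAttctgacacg, chr10:82859104-82859132, plus strand, position -92.

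The other 4 belong to genes with higher levels in both AOC11 lines.
Gstm5: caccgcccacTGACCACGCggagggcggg, chr3:107895802-107895830, plus strand, position -42.
Me1: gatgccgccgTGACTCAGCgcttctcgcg, chr9:86695902-86695930, minus strand, position -6.
Mgst1: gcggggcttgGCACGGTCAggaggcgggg, chr6:138140461-138140489, plus strand, position -56.
Gclm: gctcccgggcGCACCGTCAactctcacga, chr3:122245413-122245441, plus strand, position -134.

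Matches thus occurred in genes that were higher in either pair of lines. Between the lines of the mice, the median log2 difference was 0.68 for the 11 members with a match and 0.18 for the 24 measured members without one, given here as a description. A match says only that these letters are in the window. The element can also lie outside it, so its absence from a window says nothing about Nrf2.

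The first comparison asked how the lines of the mice differed. Levels were compared as log2(FPKM + 1) after quantile normalization, and the mean of AOC11 and AOC11-LN was taken from the mean of AOC3 and AOC3-LN. A difference above 1 or below -1 was counted as past 2-fold. On this scale 5 members (12.2%) were past 2-fold higher in the AOC3 lines and 5 (12.2%) past 2-fold higher in the AOC11 lines, against a background of 5.10% and 6.0% of all tested genes. The members higher in the AOC3 lines were G6pdx, Sod1, Abcc1, Slc7a11 and Nqo1, and those higher in the AOC11 lines were Gstm5, Mgst1, Taldo1, Gpx2 and Mgst3. The median over the 41 members was 0.41, with 27 above 0 and 14 below, and that over all tested genes was 0.01. The median of the members came to 0.27 without AOC3 and 0.27 without AOC11-LN.

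Both AOC3 lines lay above both AOC11 lines for 20 members (48.8%, background 26.3%), and both AOC11 lines lay above for 9 (22.0%, background 26.7%). The groups overlapped for the other 12. With both lines of each mouse standing in for replicates, limma with Benjamini-Hochberg adjustment over all tested genes called none of the members, and the lowest adjusted p was 0.073 for G6pdx. It called 0.205% of all tested genes. At an unadjusted p under 0.05 it held 22 members (53.7%, background 18.7%), and 21 of 39 among genes that reached 5 FPKM (background 19.0%). Restricted to the 11380 protein-coding genes, of which 2.25% were called, limma called 5 members at adjusted p-values of 0.028 to 0.044, namely G6pdx, Sod1 and Gsr higher in the AOC3 lines and Taldo1 and Gstm5 higher in the AOC11 lines. Each group was 1 mouse, so these p-values describe the spread among 4 lines and not among mice. The members were chosen with earlier results of these data known, so counts beside a background are a description and not a test.

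**Figure D1:**
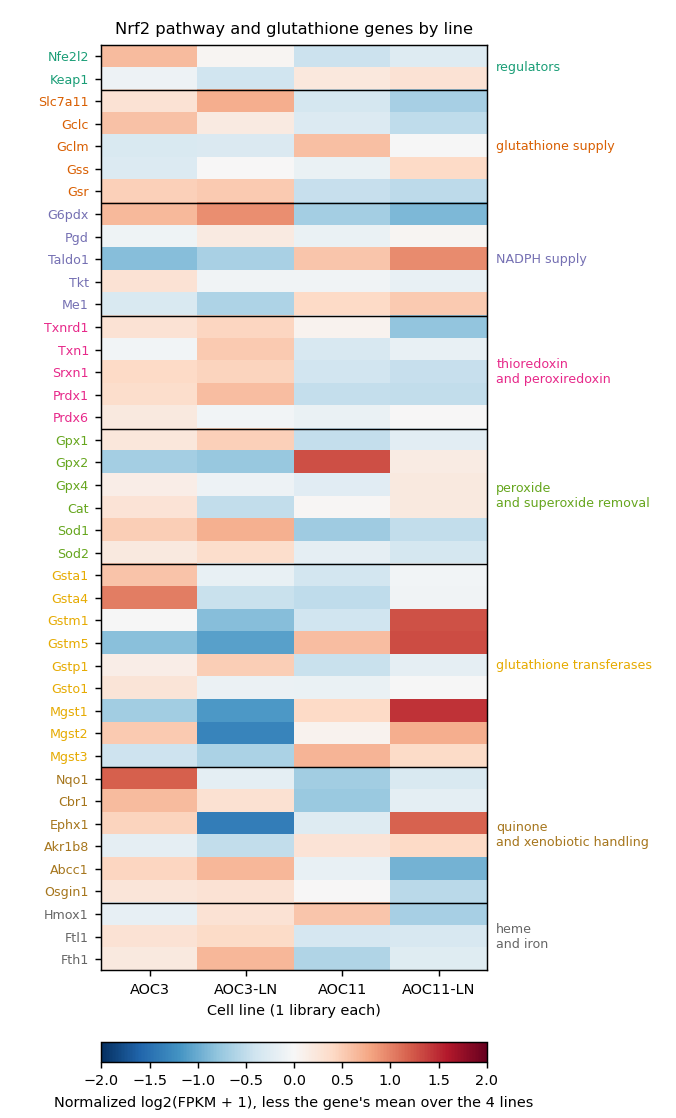
Normalized log2(FPKM + 1) of the 41 members in the 4 lines (columns, 1 library each), less the mean of each gene over the lines, from -2 (blue) to 2 (red), with rows grouped and colored by role. Most rows of the thioredoxin and peroxiredoxin group are red in both AOC3 lines, whereas several glutathione transferase rows are blue in AOC3-LN and red in AOC11-LN.

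The regulators differed in opposite directions. Nfe2l2 (chr2:75675513-75704641) was at 83.2 FPKM in AOC3 and 55.8 in AOC3-LN, against 41.7 in AOC11 and 46.5 in AOC11-LN. Both AOC3 lines were above both AOC11 lines, with a log2 difference of 0.68 (limma SE 0.25, adjusted p = 0.255), and the gap was 1.06 between the primary lines and 0.29 between the lymph node lines. Keap1 (chr9:21229730-21239361) was at 19.1, 14.5, 25.0 and 26.1 FPKM in the same order of lines. Both AOC11 lines were above both AOC3 lines, with a difference of -0.51 (SE 0.20, adjusted p = 0.274). Neither gene was past 2-fold between the pairs of lines.

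Among the genes of glutathione supply, Slc7a11, which encodes the cystine transporter subunit xCT, was the only one past 2-fold. It was at 4.94 FPKM in AOC3 and 6.54 in AOC3-LN, against 2.59 in AOC11 and 2.39 in AOC11-LN. The AOC3 lines were higher by 1.02 (SE 0.28, adjusted p = 0.183), and the difference was 0.94 without quantile normalization, 0.80 without AOC3-LN and 0.89 without AOC11-LN. Gsr, the glutathione reductase that regenerates reduced glutathione, was just short of the threshold at 0.99 and is singled out after its values were seen. It ranged from 88.2 to 180 FPKM with both AOC3 lines above. The subunits of glutamate-cysteine ligase, the rate-limiting enzyme of glutathione synthesis, went apart. The catalytic subunit Gclc (14.9 to 31.5 FPKM) was higher in both AOC3 lines by 0.77, and the modifier subunit Gclm (43.9 to 85.1 FPKM) was higher in both AOC11 lines, with a difference of -0.59. Glutathione synthetase, Gss, overlapped between the pairs at 11.9 to 19.8 FPKM.

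The genes of NADPH supply held a pair of large and opposite differences. G6pdx (chrX:74409483-74429194), the first enzyme of the oxidative pentose phosphate pathway, was at 188 FPKM in AOC3 and 235 in AOC3-LN, against 76.3 in AOC11 and 65.3 in AOC11-LN. The AOC3 lines were higher by 1.58 (SE 0.19), with 1.33 between the primary lines and 1.84 between the lymph node lines. Taldo1 (chr7:141392199-141402968), transaldolase of the non-oxidative branch, was at 55.1, 65.2, 150 and 203 FPKM in the same order. Here the AOC11 lines were higher, with a difference of -1.50 (SE 0.21, adjusted p = 0.085). The other oxidative enzyme, Pgd, overlapped between the pairs at 109 to 136 FPKM with a difference of 0.10. Transketolase, Tkt (278 to 365 FPKM), was higher in the AOC3 lines by 0.22. Malic enzyme, Me1 (17.3 to 41.7 FPKM), was higher in both AOC11 lines with a difference of -0.93. The median of the group was 0.10.

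The 5 thioredoxin and peroxiredoxin members lay on the AOC3 side, with 5 of 5 differences above 0, and none was past 2-fold. Their median was 0.72, beside 0.01 over all tested genes. Both AOC3 lines were above both AOC11 lines for Txnrd1, Txn1, Srxn1 and Prdx1 (80.0%, background 26.3%). Prdx6 overlapped, with a difference of only 0.13. Prdx1, a peroxiredoxin that reduces hydrogen peroxide, differed by 0.96 at 590 to 1162 FPKM. Srxn1, the sulfiredoxin that restores overoxidized peroxiredoxins, differed by 0.84 at 15.5 to 28.8 FPKM. Txnrd1, thioredoxin reductase, differed by 0.23 between the primary lines and by 1.21 between the lymph node lines. Other genes of this system lay on both sides. Of the 8 Prdx and Txn genes in the list of other pathway genes described below, 3 lay above 0 and 5 below, with a median of -0.26. Both AOC11 lines were above both AOC3 lines for 37.5% of these (background 26.7%). They were the mitochondrial Prdx3 (-0.97), Prdx4 (-0.36) and the reductase Txnrd3 (-1.03). Both AOC3 lines were above for Txn2 (0.30), or 12.5% (background 26.3%). The rest overlapped, among them the thioredoxin inhibitor Txnip (-1.20).

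**Figure D2:**
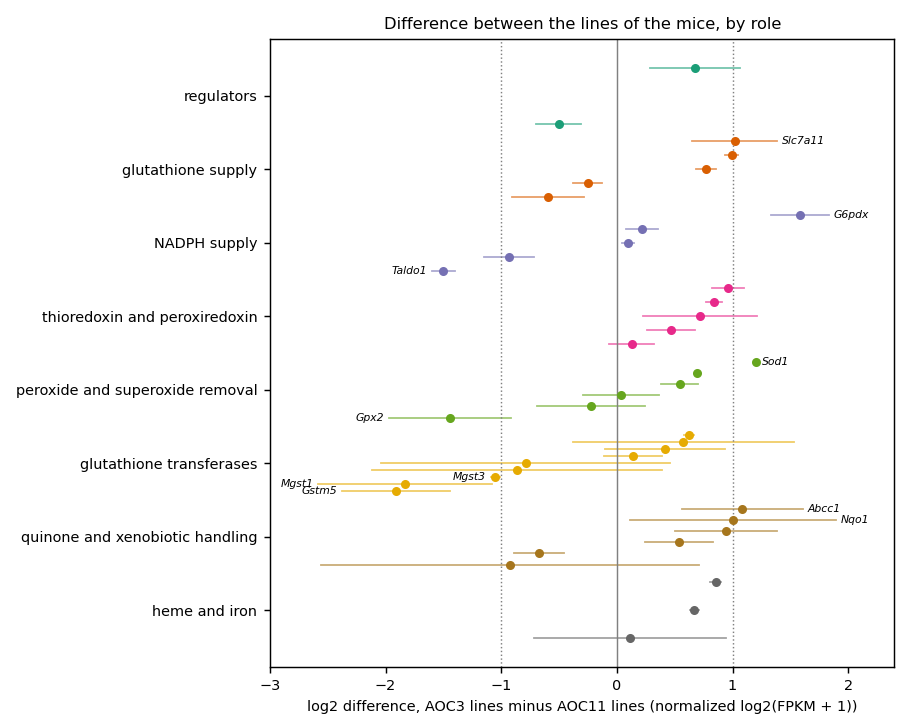
Log2 difference of AOC3 lines less AOC11 lines for the 41 members by role, where points are the mean of both sites and line ends are the differences of the primary and of the lymph node lines. Dotted lines mark 2-fold, and the named members are past it. All 5 thioredoxin and peroxiredoxin points lie above 0, and 5 of 9 glutathione transferase points lie below.

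Among the genes of peroxide and superoxide removal, Sod1 and Gpx2 were past 2-fold on opposite sides. Sod1 (chr16:90220754-90226329), the cytosolic copper-zinc superoxide dismutase, was at 524 FPKM in AOC3 and 571 in AOC3-LN, against 228 in AOC11 and 278 in AOC11-LN. The AOC3 lines were higher by 1.20 (SE 0.18, adjusted p = 0.094), and the gap was about as large between the primary lines (1.21) as between the lymph node lines (1.19). Gpx2 (chr12:76792333-76795554), a glutathione peroxidase of epithelia, was at 0.0701, 0.0117, 3.07 and 1.16 FPKM in that order. The difference was -1.44 (SE 0.45, adjusted p = 0.207), and it was -0.92 without AOC11. Gpx2 was thus near the detection limit in the AOC3 lines, with at most 7.1 fragments in AOC3 and 1.0 in AOC3-LN. The abundant Gpx1 (328 to 577 FPKM) and the mitochondrial Sod2 (46.8 to 76.3 FPKM) were higher in both AOC3 lines by 0.69 and 0.54. Gpx4, which reduces lipid peroxides, and catalase, Cat, overlapped between the pairs.

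The glutathione transferases, which conjugate glutathione to electrophiles, had the lowest median of the role groups at -0.79. Of the 9 measured members, 3 were past 2-fold higher in the AOC11 lines (33.3%, background 6.0%) and none in the AOC3 lines (background 5.10%). The sign of the group median depended on the site, at 0.39 between the primary lines (6 of 9 above 0) and -1.02 between the lymph node lines (8 of 9 below 0). Gstm5 (chr3:107895821-107898686), a mu-class enzyme, was at 7.47 FPKM in AOC3 and 5.62 in AOC3-LN, against 22.3 in AOC11 and 36.1 in AOC11-LN. The difference was -1.91 (SE 0.30, adjusted p = 0.094). The microsomal Mgst1 (chr6:138140316-138156755) was at 0.682, 0.175, 2.32 and 6.45 FPKM, with a difference of -1.83 (SE 0.44, adjusted p = 0.151). For both genes both AOC11 lines were above both AOC3 lines. Mgst1 was scarce in the AOC3 lines, with at most 23.2 fragments in AOC3 and 5.0 in AOC3-LN. It reached 1 FPKM only in the AOC11 lines. Mgst3 (chr1:167371966-167393841) was at 7.05, 5.40, 16.5 and 13.3 FPKM, with a difference of -1.05 (SE 0.23, adjusted p = 0.133) that came to -0.90 without AOC11 and -0.95 without AOC3-LN. In contrast, the pi-class Gstp1 was far more abundant at 238 to 447 FPKM and was higher in both AOC3 lines by 0.62, and Gsto1 overlapped at 539 to 716 FPKM. Gstp1 shares 25.09% of its 100-base transcript windows with other genes, chiefly Gstp2, so its level is less certain. Gsta1 shares 80.58% and had at most 25.3 fragments in any line, so its direction is uncertain. Without it the median of the group was -0.83. The measured transferases in the list of other pathway genes described below lay on both sides. Gstm2 (-2.61), Gsto2 (-2.16), Gstk1 (-0.70) and Gstm7 (-0.33) were on the AOC11 side. Gstp2 (0.72), Gstt3 (0.66), Gstt2 (0.53), Gstz1 (0.35), Gstt1 (0.10) and Gstm4 (0.04) were on the AOC3 side. Gstm7 and Gstt1 were scarce, at most 1.28 and 1.31 FPKM.

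**Figure D3:**
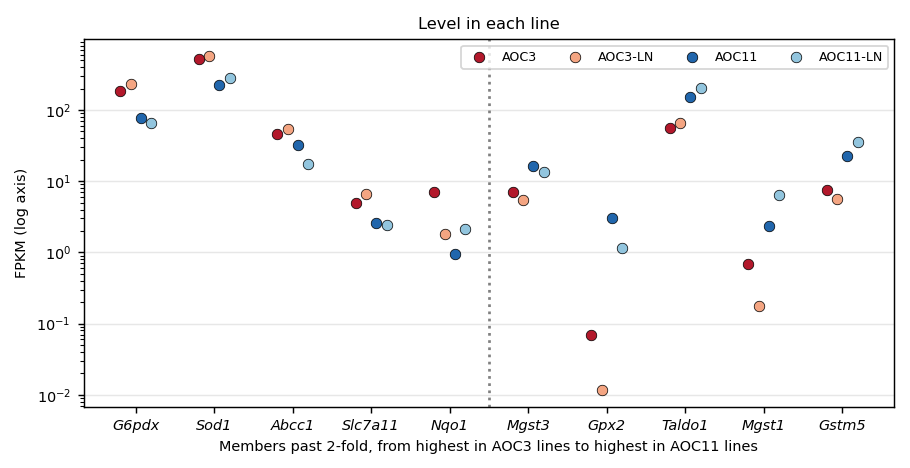
FPKM of the 10 members past 2-fold between the AOC3 and AOC11 lines, on a log axis, with 1 point per line and library. Members left of the dotted line were higher in the AOC3 lines and those right of it in the AOC11 lines. For Nqo1 the AOC3-LN point (1.79) lies just below the AOC11-LN point (2.10).

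Of the genes of quinone and xenobiotic handling, Nqo1 and Abcc1 were past 2-fold higher in the AOC3 lines. Nqo1 (chr8:107388225-107403206), the quinone reductase often read as a marker of Nrf2 activity, was at 7.04 FPKM in AOC3 and 1.79 in AOC3-LN, against 0.950 in AOC11 and 2.10 in AOC11-LN. These levels rest on an estimated 331, 71, 44 and 95 fragments, and exact Poisson 95% intervals, which cover counting error only, were 6.30 to 7.84 FPKM in AOC3, 1.40 to 2.26 in AOC3-LN, 0.690 to 1.27 in AOC11 and 1.70 to 2.56 in AOC11-LN. AOC3 thus stood alone, and the AOC3-LN and AOC11-LN intervals overlapped. After normalization AOC3-LN was above AOC11-LN by 0.11, so Nqo1 is counted among the 20 members with both AOC3 lines above. The difference of 1.004 (SE 0.52, adjusted p = 0.369) came to 0.31 without AOC3, 0.99 with median scaling and 0.95 without quantile normalization. Abcc1 (chr16:14361558-14475737), an exporter of glutathione conjugates, was at 45.3, 54.1, 31.8 and 17.7 FPKM. The AOC3 lines were higher by 1.08 (SE 0.31, adjusted p = 0.186), a value that came to 0.68 without AOC11-LN and 0.95 without AOC3-LN. Carbonyl reductase, Cbr1 (8.84 to 23.8 FPKM), and Osgin1 (17.4 to 30.3 FPKM) were also higher in both AOC3 lines, by 0.94 and 0.54, while the aldo-keto reductase Akr1b8 (29.3 to 57.3 FPKM) was higher in both AOC11 lines with a difference of -0.67.

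The heme and iron genes were not past 2-fold between the mice. The ferritin subunits, which store iron, were among the most abundant members. Ftl1 was at 2574 FPKM in AOC3 and 2236 in AOC3-LN, against 1494 in AOC11 and 1625 in AOC11-LN, and the AOC3 lines were higher by 0.67 (SE 0.18). Fth1 was at 2258, 2902, 1218 and 1659 FPKM, and the AOC3 lines were higher by 0.85 (SE 0.25). Both AOC3 lines were above both AOC11 lines for each subunit, although 34.38% of the windows of Ftl1 are shared with other genes. Hmox1, the heme oxygenase that releases iron from heme, was at 22.4, 30.6, 38.5 and 16.2 FPKM and overlapped between the pairs, with a difference of 0.11.

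The second comparison asked how the lymph node line of each mouse differed from its primary line. In mouse AOC3, no member was past 2-fold higher in AOC3-LN (background 2.11%) and 4 (9.8%, background 3.42%) were past 2-fold lower, namely Mgst2, Ephx1, Gsta4 and Nqo1. In mouse AOC11, 3 members (7.3%, background 4.97%) were past 2-fold higher in AOC11-LN, namely Gstm1, Ephx1 and Mgst1, and 2 (4.9%, background 3.14%) were past 2-fold lower, namely Hmox1 and Gpx2. The median over the members was -0.07 in mouse AOC3 and 0.14 in mouse AOC11, beside 0.02 and -0.02 over all tested genes. These are differences between single libraries and have no replicate check. For both mice together, limma with the mouse as a block called no member and 0.0141% of all tested genes. At an unadjusted p under 0.05 it held 0 members, beside 2.86% of all tested genes, and the lowest unadjusted p of a member was 0.124.

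**Figure D4:**
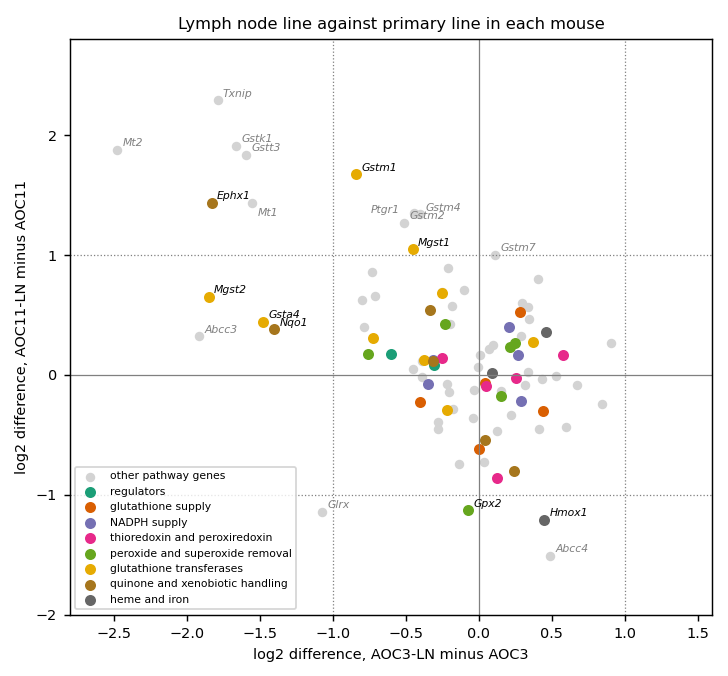
Log2 difference between lymph node and primary line in mouse AOC3 (horizontal axis) and mouse AOC11 (vertical axis) for the 41 members, colored by role, and for 54 other pathway genes in grey. Dotted lines mark 2-fold, and genes past it in either mouse are named. Ephx1 is the member in the upper left corner, past 2-fold lower in AOC3-LN and past 2-fold higher in AOC11-LN.

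Ephx1 (chr1:180976210-181020904), the microsomal epoxide hydrolase, which takes part in the metabolism of polycyclic hydrocarbons such as DMBA, was, at a pseudocount of 1 FPKM, the one member past 2-fold in opposite directions in the mice. It was at 6.22 FPKM in AOC3 and 0.881 in AOC3-LN, against 3.24 in AOC11 and 11.1 in AOC11-LN. It was thus lowest in one lymph node line and highest in the other. The difference was -1.83 in mouse AOC3 and 1.44 in mouse AOC11. Such a lower level in AOC3-LN with a higher one in AOC11-LN, both past 2-fold, was seen for 0.678% of all tested genes. The count depended on the pseudocount. At 0.1 FPKM, 4 members had the pattern, beside 1.82% of all tested genes. They were Ephx1, Gstm1 (-1.04 and 1.88), Mgst1 (-1.31 and 1.29), which was scarce in the AOC3 lines, and the scarce Gsta1 (-1.83 and 1.41).

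Most glutathione transferases had the same signs as Ephx1, and at a pseudocount of 1 FPKM none was past 2-fold in both mice. Leaving out the uncertain Gsta1, 7 of 8 were lower in AOC3-LN than in AOC3 (median -0.41) and 7 of 8 were higher in AOC11-LN than in AOC11 (median 0.55). The medians over all tested genes were 0.02 in mouse AOC3 and -0.02 in mouse AOC11. Mgst2 (chr3:51660360-51682677) was at 22.2 FPKM in AOC3 and 5.07 in AOC3-LN, against 16.7 in AOC11 and 26.3 in AOC11-LN, which gave -1.85 in mouse AOC3 and 0.65 in mouse AOC11. AOC3-LN was the low line here, and the other 3 lay within 16.7 to 26.3 FPKM. Gsta4 (chr9:78182774-78209349), an enzyme for the lipid peroxidation product 4-hydroxynonenal, was at 6.77, 1.55, 1.45 and 2.95 FPKM, which gave -1.47 and 0.44. AOC3 was the high line. Gstm1 (chr3:108012255-108017973) was at 5.39, 2.29, 3.75 and 14.8 FPKM, which gave -0.84 and 1.67, with AOC11-LN the high line. Mgst1, shown above and scarce in the AOC3 lines, gave -0.45 and 1.05. The exceptions were Gstp1, at 0.37 in mouse AOC3, and Mgst3, at -0.29 in mouse AOC11. Between the lymph node lines themselves, 5 of these 8 transferases were past 2-fold lower in AOC3-LN than in AOC11-LN (background 8.69%) and none was past 2-fold higher (background 7.58%). Between the primary lines, 3 of 8 were past 2-fold lower in AOC3 than in AOC11 (background 5.69%), and Gsta4 was past 2-fold higher at 1.54 (background 6.25%).

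Nqo1 differed by -1.40 in mouse AOC3 and by 0.38 in mouse AOC11. Hmox1 differed by 0.45 in mouse AOC3 and by -1.21 in mouse AOC11. Gpx2 differed by -1.13 in mouse AOC11, a value that came to -0.91 without quantile normalization or with median scaling. The genes of glutathione supply, NADPH supply and the thioredoxin system had no member past 2-fold in either mouse. Txnrd1 was nearest to it, at -0.86 in mouse AOC11. Nfe2l2 differed by -0.60 in mouse AOC3 and 0.17 in mouse AOC11, and Keap1 by -0.31 and 0.08.

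A list of 66 other genes of the same pathways, also chosen with earlier results known, held 54 that passed the filter. Between the mice, 5 (9.3%, background 5.10%) of them were past 2-fold higher in the AOC3 lines and 6 (11.1%, background 6.0%) higher in the AOC11 lines. Their median was 0.02. At an unadjusted p under 0.05 limma held 12 (22.2%), near the background of 18.7%, and the lowest adjusted p was 0.101. The largest differences were those of the exporter Abcc4 (2.19) and the metallothioneins Mt1 (1.54) and Mt2 (1.45) on the AOC3 side, and of Gstm2 (-2.61), Gsto2 (-2.16) and the glutaredoxin Glrx (-1.37) on the AOC11 side. In mouse AOC3, 0 were past 2-fold higher (background 2.11%) and 7 (13.0%, background 3.42%) past 2-fold lower in AOC3-LN. The lowest were Mt2 (-2.48), Abcc3 (-1.92) and Txnip (-1.79), the inhibitor of thioredoxin, and the highest were Chac1 (0.91), Ggct (0.84) and Tigar (0.68). In mouse AOC11, 9 (16.7%, background 4.97%) were past 2-fold higher in AOC11-LN and 2 (3.7%, background 3.14%) past 2-fold lower. The highest were Txnip (2.29), Gstk1 (1.91) and Mt2 (1.88), and the lowest were Abcc4 (-1.51), Glrx (-1.14) and Fech (-0.75). Glrx was also past 2-fold lower in mouse AOC3 (-1.07). Its limma p for lymph node against primary lines was the lowest of the list, at 0.00501 unadjusted and 0.999 adjusted.

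The pattern of Ephx1, past 2-fold lower in AOC3-LN and past 2-fold higher in AOC11-LN, was shared by 5 of these 54 genes (9.26%, background 0.678%). They were Txnip, Gstk1, Gstt3, Mt1 and Mt2. Txnip was at 21.6 FPKM in AOC3 and 5.16 in AOC3-LN, against 11.9 in AOC11 and 61.9 in AOC11-LN. Mt2, which binds zinc and other metals, was at 206, 35.0, 16.1 and 60.7 FPKM. Gstk1, a mitochondrial and peroxisomal glutathione transferase, was at 19.4, 5.04, 8.85 and 35.8 FPKM.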

How the data were processed

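RNA from the 4 lines was sequenced as stranded paired-end mRNA libraries. The authors trimmed reads with Trim Galore, mapped them to mm10 with TopHat2 and deposited FPKM values estimated by Cufflinks on GENCODE M21, without the log2 transformation and quantile normalization named in the methods. FPKM correct for transcript length, so short or shared transcripts are the least certain. The strand setting is not given in the sources used here, so genes that overlap on opposite strands may share fragments. Such members were G6pdx (with Ikbkg), Gpx2 (with Fntb), Sod1 (with Scaf4), Keap1, Slc7a11, Gclm, Gss, Me1, Txnrd1, Gstm5, Gsto1 and Ftl1.

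Values plus a pseudocount of 1 FPKM were log2-transformed and quantile-normalized, and entries with 1 FPKM or more in at least 1 line were kept. Differences understate the change of low genes. limma 3.58.1 in R 4.3.3 (lmFit, eBayes with trend, Benjamini-Hochberg adjustment, threshold 0.05) compared the AOC3 with the AOC11 lines, and the lymph node with the primary lines with the mouse as a block, since both lines of a number came from 1 mouse. Nothing says that libraries were repeated, so p-values measure the spread between lines. The steps were tested on simulated data.

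Depth was estimated from 16030 single-transcript genes, for which 61.0% to 65.7% of low values lay within 0.1 of a whole number of fragments, against 20% by chance. The estimate is therefore approximate, and counts of fragments are upper estimates for genes with several transcripts. Shared windows are 100-base stretches of GENCODE transcripts found in another gene. Members and the list of other pathway genes were chosen with earlier results of these data known. Nfe2l2, Keap1 and members past 2-fold in any of the 3 comparisons got their value in every line, as did role groups of 3 members or fewer. Of the other pathway genes, the 3 largest differences in each direction and comparison were named. The 5 with the pattern of Ephx1, the measured transferases, and Prdx3, Prdx4, Txn2 and Txnrd3 were added after their values were seen. The same holds for the value of Glrx in mouse AOC3. RefSeq promoter windows (GRCm38.p6) for Gclc, Abcc1, Prdx6, Gsr, Hmox1 and Gsta4 were not used here. Alternatives were another pseudocount, scaling, filter, threshold and gene set, the replicate block, and leaving out each line.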

Additional observations from a re-analysis of the deposited data

Results flagged for a closer look

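Ephx1, the microsomal epoxide hydrolase, was lower in AOC3-LN than in AOC3 (-1.83 on the log2 scale) and higher in AOC11-LN than in AOC11 (1.44), so the mice went opposite ways and their differences lay -3.27 apart. It stands out because the lymph node lines moved in opposite directions. The difference between the mice was not tested, since each line had 1 library.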

How the results depend on the processing

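Between the mice, 27 members were past a 1.5-fold threshold, in place of 10 past 2-fold, and leaving out 1 line gave 9 to 16, with 16 without AOC3. In AOC3-LN against AOC3, 4 members past 2-fold became 7 with a pseudocount of 0.1 FPKM and 8 at 1.5-fold, and the median of -0.07 became -0.23 with that pseudocount. In AOC11-LN against AOC11, 5 became 10 at 1.5-fold. The count of members past 2-fold lower in AOC3-LN and higher in AOC11-LN went from 1 to 4 with a pseudocount of 0.1 FPKM, an alternative chosen after seeing the data. The limma count between the mice went from 0 to 5 with protein-coding genes only. Fewer genes were tested there, and limma was refitted on them. The unadjusted limma p-values of these 5 members were also lower, for G6pdx 1.4e-04 in place of 3.9e-04. With the site as a replicate block the limma count was 0 members, with 31 genes of the whole table in place of 29, and the block changed no other count of members. Leaving out a line, an alternative chosen after seeing the data in which the lone line is assumed to vary like the others, also left 0. The other counts of members stayed within 1.5 times. The other medians moved by less than the standard deviation of a pair of comparison medians. It was 0.19 between the mice, from the primary and lymph node comparisons, and 0.15 within a mouse, from mouse AOC3 and mouse AOC11. The filter at 5 FPKM turned the median in mouse AOC3 from -0.07 to 0.00. Over the whole table, 1573 genes past 2-fold between the mice became 3814 at 1.5-fold and 2627 with a pseudocount of 0.1 FPKM, and the 29 limma calls became 0 without a filter, 50 at 5 FPKM (19.0% of genes at an unadjusted p under 0.05) and 256 with protein-coding genes only. In mouse AOC11, 704 of 1149 genes past 2-fold were higher in AOC11-LN, beside 912 of 1281 without quantile normalization and 886 of 1259 with median scaling. The difference of Ftl1 in mouse AOC3 was 0.09, but -0.20 without quantile normalization and -0.10 with median scaling. The cause of these shifts was not tested.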
